A study of Mus musculus with 20 samples.

Results

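The clustered histone genes are the genes of the Hist1, Hist2, Hist3 and Hist4 loci, taken here as every listed symbol that starts with Hist1h, Hist2h, Hist3h or Hist4h and has 50 or more counts over all 20 libraries. Of 68 such symbols among 24062 genes listed, 57 reached that minimum. They comprised 6 genes for the linker histone H1, 13 for H2A, 16 for H2B, 10 for H3 and 12 for H4. Of these, 47 lie in the Hist1 cluster on chromosome 13, 6 in Hist2 on chromosome 3, 3 in Hist3 on chromosome 11 and 1 in Hist4 on chromosome 6. The 11 symbols below the minimum were Hist1h2aa, Hist1h2ao, Hist1h2ap, Hist1h2ba, Hist1h2bq, Hist1h2br, Hist1h4m, Hist2h2aa1, Hist2h2aa2, Hist2h3c1 and Hist2h3c2. Just inside the minimum lay Hist1h1t with 175 counts and Hist1h2bp with 288, and just outside it Hist1h2ba with 2 counts and Hist1h4m with 1.

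RNA was measured by sequencing of ribosome-depleted total RNA from whole lung of adult mice of 8 to 10 weeks on a C57/129 background. The 4 groups were Arg2-/- mice kept for 28 days in hypoxia (10% oxygen), Arg2-/- mice kept in room air (21% oxygen), wild type mice in the same hypoxia and wild type mice in room air. Each group had 4 samples, after the A and B libraries of 4 room air samples had been summed. Each number is treated as 1 mouse. No label says so outright, and p-values here reflect no more than how these samples vary among themselves. Arg2 encodes the mitochondrial arginase, an enzyme that splits arginine; the labels do not place the deletion within the gene.

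Replication-dependent histone messages are the only messages of animal cells known to end in a conserved stem-loop rather than in a poly(A) tail. The stem-loop binding protein Slbp holds that end through processing, export, translation and decay, and the messages build up in S phase, when new DNA needs histones. Their genes have no introns as a rule and sit in clusters. Libraries made after poly(A) selection largely miss them, whereas ribosome depletion keeps them. Some of the clustered genes are known to give poly(A) messages as well, in cells that have left the cell cycle.

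Stem-loops are printed because they are the feature that sets these messages apart from others. They were searched after the stop codon of the GENCODE vM21 transcripts of GRCm38, the assembly behind mm10. A stem-loop was found in 38 of 57 members, while 11 members have no annotated 3′ UTR to search. Each line gives the stem and loop of 16 bases in capitals with 5 bases on each side, written as DNA.
Hist1h1c: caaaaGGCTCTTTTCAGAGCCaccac
Hist1h1e: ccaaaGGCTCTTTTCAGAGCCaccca
Hist3h2a: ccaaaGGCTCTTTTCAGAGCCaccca
Hist1h2bb: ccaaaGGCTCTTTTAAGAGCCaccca
Hist1h3d: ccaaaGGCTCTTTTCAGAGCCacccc
Hist1h4d: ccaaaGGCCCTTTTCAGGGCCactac
Hist1h4h: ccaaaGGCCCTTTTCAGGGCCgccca
Hist1h4j: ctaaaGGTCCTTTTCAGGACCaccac
The first 5 lines stand for the H1, H2A, H2B and H3 genes, whose stems opened with GGCTC in 27 of 27 cases. The last 3 lines stand for the H4 genes, of which 9 opened with GGCCC and 2 with GGTCC, and none with GGCTC. The capitals of Hist1h1c were the most common, in 19 members. The annotated transcript ran on past the stem-loop by 840 bases in Hist1h1c, 1153 in Hist1h1e, 1643 in Hist3h2a, 752 in Hist1h3d, 1861 in Hist1h2be and 2445 in Hist4h4. It ran on by 23 bases in Hist1h2bb and 46 in Hist1h4h. The letters were not found in the annotated transcripts of Hist1h2bc, the member with 2 exons, or Hist2h2be. The other 56 members have a transcript of a single exon.

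Start regions were taken from RefSeq on GRCm38.p6, each with 250 bases before and 50 after the annotated start, and 51 of 57 members were matched. The octamer ATTTGCAT, known as the site of Oct-1 in H2B genes, stood on either strand in 6 of 13 H2A and 6 of 13 H2B regions and in 0 of the H1, H3 and H4 regions, against 1.97% of 27025 genes. The letters CCAAT stood on either strand in all 40 H1, H2A, H2B and H3 regions and in 3 of 11 H4 regions, against 41.1% of all genes. The letters TATAAA stood in 31 of 51 regions, against 15.7%. None of these 3 motifs contains another. The regions of Hist1h2bb (plus strand), Hist1h1e (minus strand) and Hist1h4h (plus strand) are shown for genes that were higher in knockout than in wild type hypoxia and differ in these letters, with matches on either strand in capitals.
Hist1h2bb, chr13:23746484-23746783: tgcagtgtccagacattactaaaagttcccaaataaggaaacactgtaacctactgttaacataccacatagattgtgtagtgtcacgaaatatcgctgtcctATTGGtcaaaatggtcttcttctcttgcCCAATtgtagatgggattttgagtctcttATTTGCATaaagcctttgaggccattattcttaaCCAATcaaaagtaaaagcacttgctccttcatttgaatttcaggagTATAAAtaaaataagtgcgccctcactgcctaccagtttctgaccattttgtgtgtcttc
Hist1h1e, chr13:23622509-23622808: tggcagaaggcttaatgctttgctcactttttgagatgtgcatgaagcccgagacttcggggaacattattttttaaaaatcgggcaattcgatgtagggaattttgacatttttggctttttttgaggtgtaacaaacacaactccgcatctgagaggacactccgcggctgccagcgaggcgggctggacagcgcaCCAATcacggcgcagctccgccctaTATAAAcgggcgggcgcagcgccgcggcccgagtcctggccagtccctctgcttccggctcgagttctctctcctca
Hist1h4h, chr13:23530794-23531093: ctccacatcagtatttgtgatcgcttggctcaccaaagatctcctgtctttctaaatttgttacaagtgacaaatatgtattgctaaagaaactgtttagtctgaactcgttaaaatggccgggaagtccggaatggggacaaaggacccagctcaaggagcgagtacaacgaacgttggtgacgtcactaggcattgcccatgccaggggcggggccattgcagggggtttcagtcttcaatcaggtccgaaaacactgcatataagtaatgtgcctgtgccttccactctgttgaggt
The Hist1h2bb region held the octamer, CCAAT and TATAAA, the Hist1h1e region CCAAT and TATAAA, and the Hist1h4h region none of the 3. Among the members, 10 H2A genes stand head to head with an H2B gene, with 172 to 301 bases between the annotated starts.

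Depth differed, with 9531270 counts in genes in the smallest sample and 63331530 in the largest. CPM, the usual counts scaled to library size, were taken after TMM scaling. With no count at all a gene may still lie as high as 0.0474 CPM in the deepest sample and 0.315 CPM in the shallowest, for counting error only. Wild type hypoxia 4 stood apart: the rRNA precursor Rn45s took 19.9% of its counts, against 0.518% to 1.33% in the other 15 samples, and its TMM factor was 0.798, against 0.969 to 1.05. In this sample, 50 of 57 members were the lowest of their group, against 29.4% of all genes tested, and the median member lay at -0.76 (log2) relative to the mean of the other 3. Wild type room air 3 had the fewest counts. Of its reads counted either in genes or in no gene, 25.4% lay in genes, with reads of several positions left aside. The 6 lung markers, surfactant genes among them, summed to 28037 to 37479 CPM over the 16 samples. Arg2 itself averaged 4.28 ± 0.912 CPM in knockout hypoxia and 9.30 ± 2.25 in wild type hypoxia (SD, n = 4 each), and was lower with a log2 fold change of -1.13 ± 0.22 (SE) and an edgeR adjusted p of 0.00191. In room air Arg2 averaged 5.62 ± 1.47 CPM in knockout and 9.19 ± 1.92 in wild type lungs, the ranges overlapped, and the edgeR adjusted p was 0.0842.

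The messages of the clustered genes spanned a wide range in lung. Mean CPM over the 16 samples ran from 0.299 for Hist1h1t, the testis H1, to 149.99 for Hist1h1c. The 6 members with 50 CPM or more were Hist1h1c, Hist1h4d, Hist1h1e, Hist1h4c, Hist1h4h and Hist1h2bc, and they held 58.3% of the summed CPM. The 37 lowest members together held 14.4%, and 4 members averaged under 1 CPM. Per kilobase of annotated transcript the order differed: Hist1h4h had 157 CPM per kilobase, Hist1h4d 121, Hist1h4c 97.1, Hist1h1c 96.1, Hist2h2bb 73.6 and Hist1h2bc 57.8. Hist1h1d, with an annotated transcript of 7425 bases, had 4.26 CPM per kilobase, so that its level per length rests on that gene model. A count of 0 occurred once among the members, for Hist1h2ae in wild type room air 3.

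Near-identical copies limit these levels, because reads with several alignments were set aside before counting. At the median, 43.8% of the 50-base stretches of a member's transcript occur at another locus too, and 22 members exceed 50%. Among the 11 symbols under the minimum the median was 89.8%. Neighbouring transcripts overlap too: 5 members overlap another gene on the same strand, such as Hist1h1e with Hist1h2be, and all 13 H2A members overlap an annotated gene on the other strand. Which strand setting the counting used is not stated.

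By type, H4 genes held on average 38.1% of the summed CPM of a sample, H1 28.8%, H2B 20.5%, H2A 6.75% and H3 5.84%. Reads with several alignments are missing from these sums. The 11 symbols under the minimum, which add nothing to them, are H2A, H2B, H3 and H4 genes, with no H1 gene among them. How far sequence sharing shapes the shares of the types was not tested. The H4 share was 33.9% to 35.8% in knockout hypoxia and 36.1% to 42.7% in the other 12 samples, without overlap. The H1 share ran from 23.1% to 33.2% over the 16 samples and the H3 share from 5.10% to 6.91%. H1 and H4 genes thus make up most of any sum over the members.

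Summed over all 57 genes, the knockout hypoxia samples had 1102, 1544, 1295 and 1379 CPM. The knockout room air samples had 892, 899, 1154 and 1072 CPM. The wild type hypoxia samples had 979, 1096, 932 and 634 CPM and the wild type room air samples 885, 969, 887 and 952. All 4 knockout hypoxia samples thus lay above all wild type hypoxia samples, by a margin of only 1102 against 1096, while knockout hypoxia and knockout room air overlapped. The means were 1330.2 ± 184 CPM in knockout hypoxia, 1004 ± 129.7 in knockout room air, 910.2 ± 197 in wild type hypoxia and 923 ± 43.6 in wild type room air (SD, n = 4 each). The ratio of means between knockout and wild type was 1.46 in hypoxia and 1.09 in room air. Without wild type hypoxia 4 the ratio in hypoxia was 1.33, and without knockout hypoxia 2, the highest sample, it was 1.38. The ratio between hypoxia and room air was 1.32 in knockout and 0.986 in wild type lungs. Without wild type hypoxia 4 the wild type ratio was 1.09. No test is given for these sums. In whole lung, fewer or more cells of a type that makes these messages and less or more message per cell cannot be told apart.

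**Figure D1:**
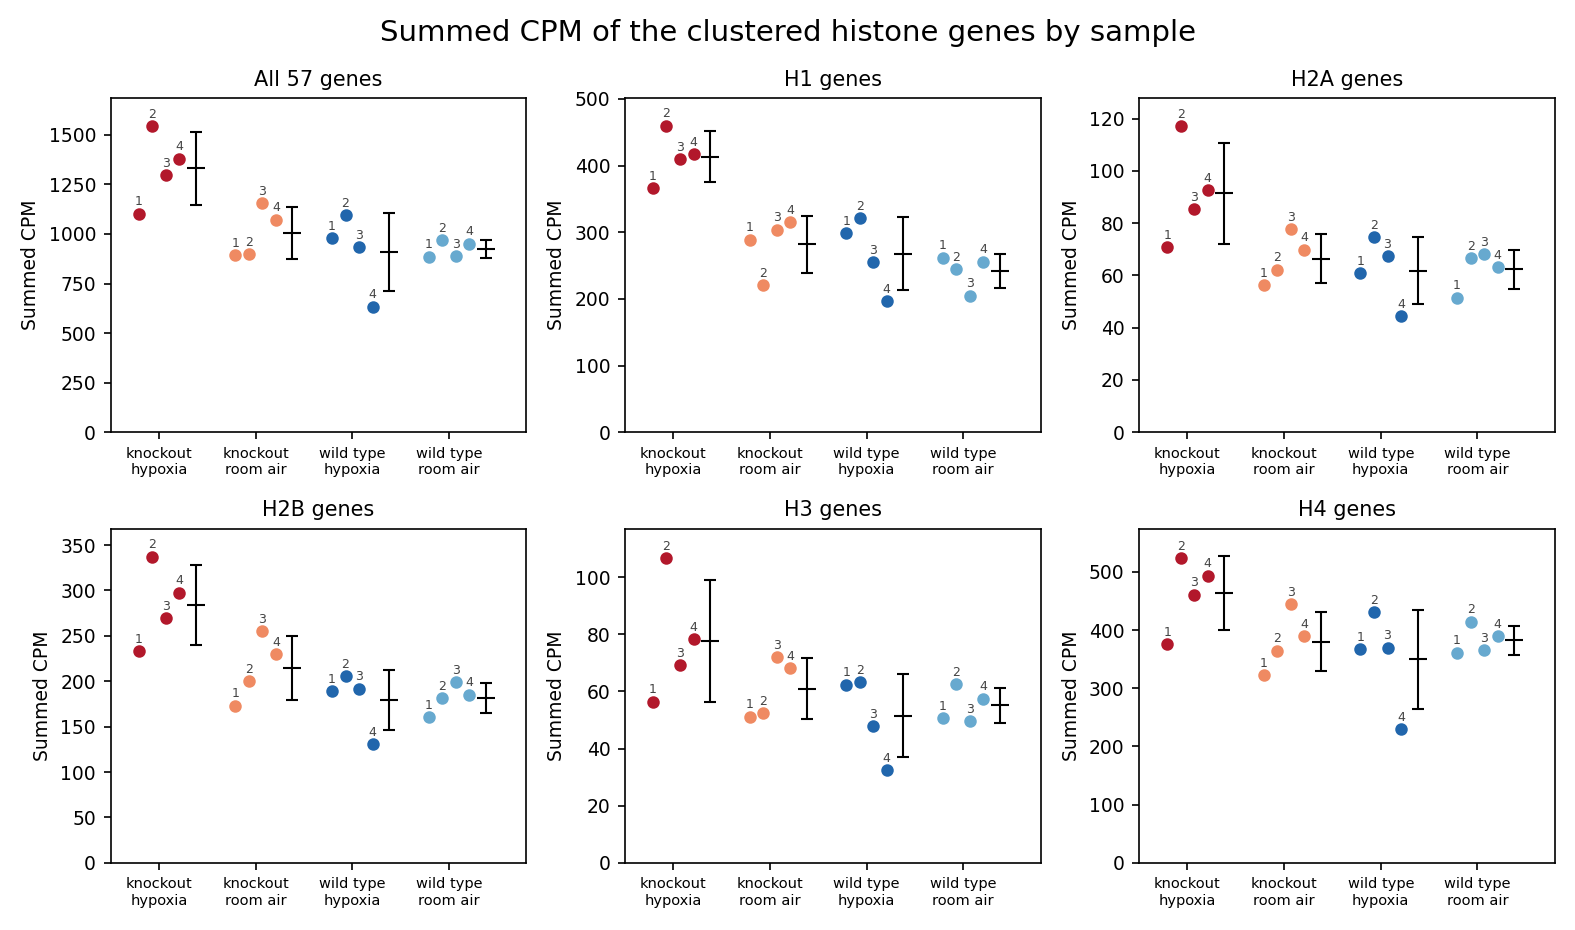
Summed CPM of all 57 clustered histone genes and of the H1, H2A, H2B, H3 and H4 genes (vertical axes, from 0) in the 16 samples (points, numbered within their group), with the group mean ± SD (n = 4) in black. Knockout hypoxia has the highest mean in each panel, and wild type hypoxia 4 is the lowest sample of its group in each.

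Knockout hypoxia had the highest mean sum of each of the 5 types. H1 sums were 366 to 460.0 CPM in knockout hypoxia, 220.2 to 315 in knockout room air, 197 to 322 in wild type hypoxia and 205 to 262 in wild type room air, so that knockout hypoxia overlapped none of the other groups. H2B sums were 233 to 337 CPM in knockout hypoxia and 130.4 to 206 in wild type hypoxia, again without overlap, but reached 255 in knockout room air. H2A sums (70.9 to 117 CPM in knockout hypoxia, 44.4 to 74.7 in wild type hypoxia), H3 sums (56.5 to 107 and 32.4 to 63.3 CPM in the same groups) and H4 sums (376 to 524 and 229.9 to 431 CPM) overlapped. The ratio of means between knockout and wild type hypoxia was 1.59 for H2B, 1.54 for H1, 1.51 for H3, 1.48 for H2A and 1.33 for H4. Without wild type hypoxia 4 it was 1.45, 1.42, 1.34, 1.35 and 1.19 for the same types in the same order.

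The comparison of knockout with wild type lungs in hypoxia showed the most calls. Of the 57 genes, all of which entered the fit, 18 were higher in knockout hypoxia with an edgeR adjusted p under 0.05 and 0 were lower, or 31.6% of the members called higher, against 11.0% of all genes tested. A positive log2 fold change was found for 56 of 57 members, against 48.6% of all genes, with a median of 0.59 for the members and -0.01 for all genes. The exception was the pseudogene Hist3h2bb-ps, at -0.23 ± 0.39 (SE). The groups did not overlap, with knockout hypoxia higher, for 14 members, or 5 of 16 H2B, 3 of 10 H3, 2 of 13 H2A, 2 of 12 H4 and 2 of 6 H1 genes, against 13.3% of all genes. The number called was 8 without knockout hypoxia 2, 8 without knockout hypoxia 4 and 10 without wild type hypoxia 4. Calls over all genes fell too, with 1293 of 15886, 972 of 15882 and 1377 of 15892 called higher. The members called were 10 without 4 samples with pancreas or thymocyte markers (knockout hypoxia 1 and 2 and knockout room air 3 and 4), and 4 without those and wild type hypoxia 4. There 981 of 16037 and 756 of 15991 genes were called higher. The members' median was 0.39 without knockout hypoxia 2 and 0.35, with 50 positive, without those 4 samples and wild type hypoxia 4. Wild type room air 1, which had 1154 CPM of skeletal muscle markers, and knockout hypoxia 3, which had 16.4 CPM of pancreas markers, stayed in those fits. The number called was 17 without wild type room air 1 alone and 12 without knockout hypoxia 3 alone. Over all genes, 1656 of 15856 and 1119 of 15890 were called higher in these 2 fits.

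By type, the genes called higher were 3 of 6 H1, 3 of 13 H2A, 5 of 16 H2B, 3 of 10 H3 and 4 of 12 H4 genes. They were Hist1h1c, Hist1h1d and Hist1h1e among H1, Hist3h2a, Hist1h2ab and Hist2h2ab among H2A, Hist1h2bb, Hist1h2bc, Hist1h2be, Hist2h2be and Hist3h2ba among H2B, Hist1h3a, Hist1h3c and Hist1h3d among H3, and Hist1h4c, Hist1h4h, Hist1h4j and Hist1h4n among H4. The calls differed in how often they held over 30 alternative settings. Those of Hist1h2bc and Hist1h1e held in all 30, and those of Hist1h1c, Hist3h2a, Hist1h3d, Hist1h3c, Hist1h4h, Hist1h4j, Hist2h2be and Hist3h2ba in 27 to 29. Hist1h4n was called in 24 settings, Hist1h2ab in 23, Hist1h2bb and Hist2h2ab in 22 and Hist1h4c in 20. Hist1h3a was called in 14, Hist1h2be in 13 and Hist1h1d in 8. The median log2 fold changes of the types were 0.62 for H1, 0.59 for H2A, 0.52 for H2B, 0.77 for H3 and 0.49 for H4.

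**Figure D2:**
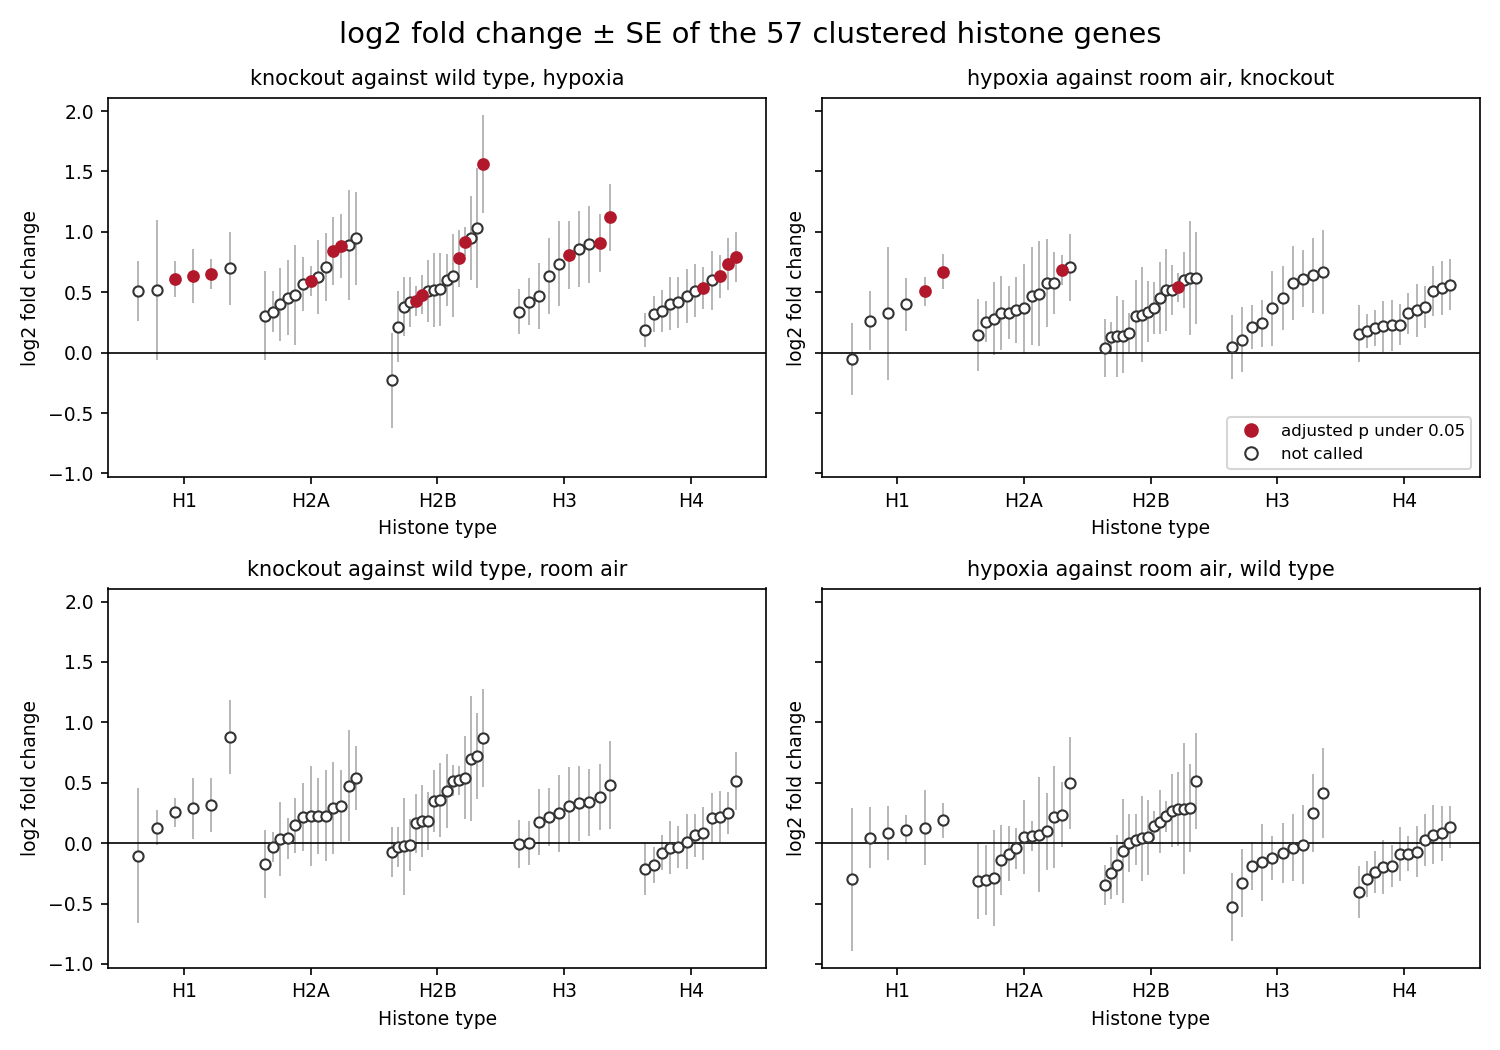
log2 fold change ± SE of each of the 57 genes (vertical axis), by histone type and ordered by value within a type, in 4 comparisons. Filled points have an edgeR adjusted p under 0.05: 18 between knockout and wild type hypoxia, 4 between hypoxia and room air in knockout, and 0 in the other 2 panels.

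Among the linker histones, which bind where DNA enters and leaves the nucleosome, Hist1h1c and Hist1h1e carried most of the counts. Hist1h1c (chr13:23738808-23740367, plus strand, H1.2) had 179.7, 229, 214 and 218 CPM in knockout hypoxia and 148, 170.4, 130.1 and 102 CPM in wild type hypoxia. No knockout value reached down to a wild type one, and the log2 fold change was 0.61 ± 0.15 (SE) with an edgeR adjusted p of 0.00763. Hist1h1e (chr13:23620629-23622558, minus strand, H1.4) had 129, 136, 139 and 137 CPM in knockout hypoxia and 98.3, 96.6, 81.2 and 69.4 CPM in wild type hypoxia. It rose by 0.65 ± 0.12 on the log2 scale with an edgeR adjusted p of 0.00166. Hist1h1d rose by 0.63 ± 0.22, at an adjusted p of 0.0493. Hist1h1a, Hist1h1b and Hist1h1t lay between 0.51 and 0.70 and were not called.

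Among H2A genes, Hist3h2a (chr11:58954685-58956830, plus strand), the H2A gene of the small Hist3 cluster, was the most abundant. Its values were 26.1, 32.9, 29.9 and 27.1 CPM in knockout hypoxia and 15.8, 22.5, 22.5 and 15.9 CPM in wild type hypoxia, without overlap, and it rose by 0.59 ± 0.13 on the log2 scale (edgeR adjusted p = 0.0034). Its transcript overlaps Trim17 on the same strand. Hist2h2ac and Hist1h2ak, the next in level, averaged 18.0 ± 3.23 and 9.35 ± 2.60 CPM in knockout hypoxia, against 14.2 ± 3.52 and 6.34 ± 1.25 in wild type hypoxia, and were not called.

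Hist1h2bc (chr13:23684199-23692908, plus strand), the most abundant H2B gene, gave the smallest p of all members. It had 84.5, 94.8, 102 and 115 CPM in knockout hypoxia and 48.1, 58.1, 59.4 and 44.2 CPM in wild type hypoxia. The groups stood well apart, and the log2 fold change was 0.92 ± 0.12 (SE) with an edgeR adjusted p of 0.000117. Hist2h2be (chr3:96221119-96223738, plus strand) had 12.8, 14.3, 15.8 and 16.6 CPM in knockout hypoxia and 10.9, 10.1, 11.2 and 12.0 CPM in wild type hypoxia, and rose by 0.43 ± 0.13 (adjusted p = 0.021). The groups did not overlap, and wild type hypoxia 4 was here the highest of its group. Hist3h2ba, at 0.791 to 3.17 CPM in knockout hypoxia and 0.325 to 0.768 CPM in wild type hypoxia, had the largest log2 fold change of the members, 1.56 ± 0.41 (adjusted p = 0.0114), without overlap. The top value was that of knockout hypoxia 2, against 0.791 to 1.51 CPM in the other 3 samples of its group. Without that sample the adjusted p was 0.0539, and without the 4 samples with pancreas or thymocyte markers it was 0.156. The log2 fold change was as low as 0.89 over the alternatives. Hist1h2be had 33.2, 41.4, 43.9 and 42.4 CPM in knockout hypoxia and 33.9, 30.1, 30.4 and 21.1 in wild type hypoxia. These groups overlapped, and it rose by 0.48 ± 0.16 (adjusted p = 0.043).

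The H3 genes were low in these counts, from which reads with several alignments are missing. Hist1h3f and Hist1h3e were highest, at 17.9 ± 4.32 and 16.6 ± 2.99 CPM in knockout hypoxia and 14.2 ± 3.77 and 12.4 ± 3.70 CPM in wild type hypoxia, neither called. Hist1h3b averaged 8.53 ± 3.18 CPM in knockout hypoxia and 5.49 ± 1.56 in wild type hypoxia and was not called. Hist1h3d (chr13:23575763-23577011, plus strand) had 2.86, 8.10, 4.35 and 5.36 CPM in knockout hypoxia and 2.49, 3.13, 1.83 and 2.02 CPM in wild type hypoxia. The lowest knockout value lay below the highest wild type value, and it rose by 1.12 ± 0.28 on the log2 scale (edgeR adjusted p = 0.00849).

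Among H4 genes, Hist1h4d (chr13:23581598-23582735, plus strand) was the most abundant and was not called. It had 115, 167, 158 and 158 CPM in knockout hypoxia and 139.6, 155, 139 and 91.9 CPM in wild type hypoxia, a log2 fold change of 0.19 ± 0.14 (adjusted p = 0.363). Hist1h4h (chr13:23531050-23531519, plus strand) had 71.3, 96.2, 93.7 and 114 CPM in knockout hypoxia and 64.2, 73.6, 66.7 and 37.97 CPM in wild type hypoxia. It rose by 0.63 ± 0.18 (adjusted p = 0.0178), with 1 knockout value inside the wild type range. Hist1h4c averaged 96.5 ± 9.88 CPM in knockout hypoxia and 66.6 ± 19.8 in wild type hypoxia and rose by 0.54 (adjusted p = 0.0326).

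**Figure D3:**
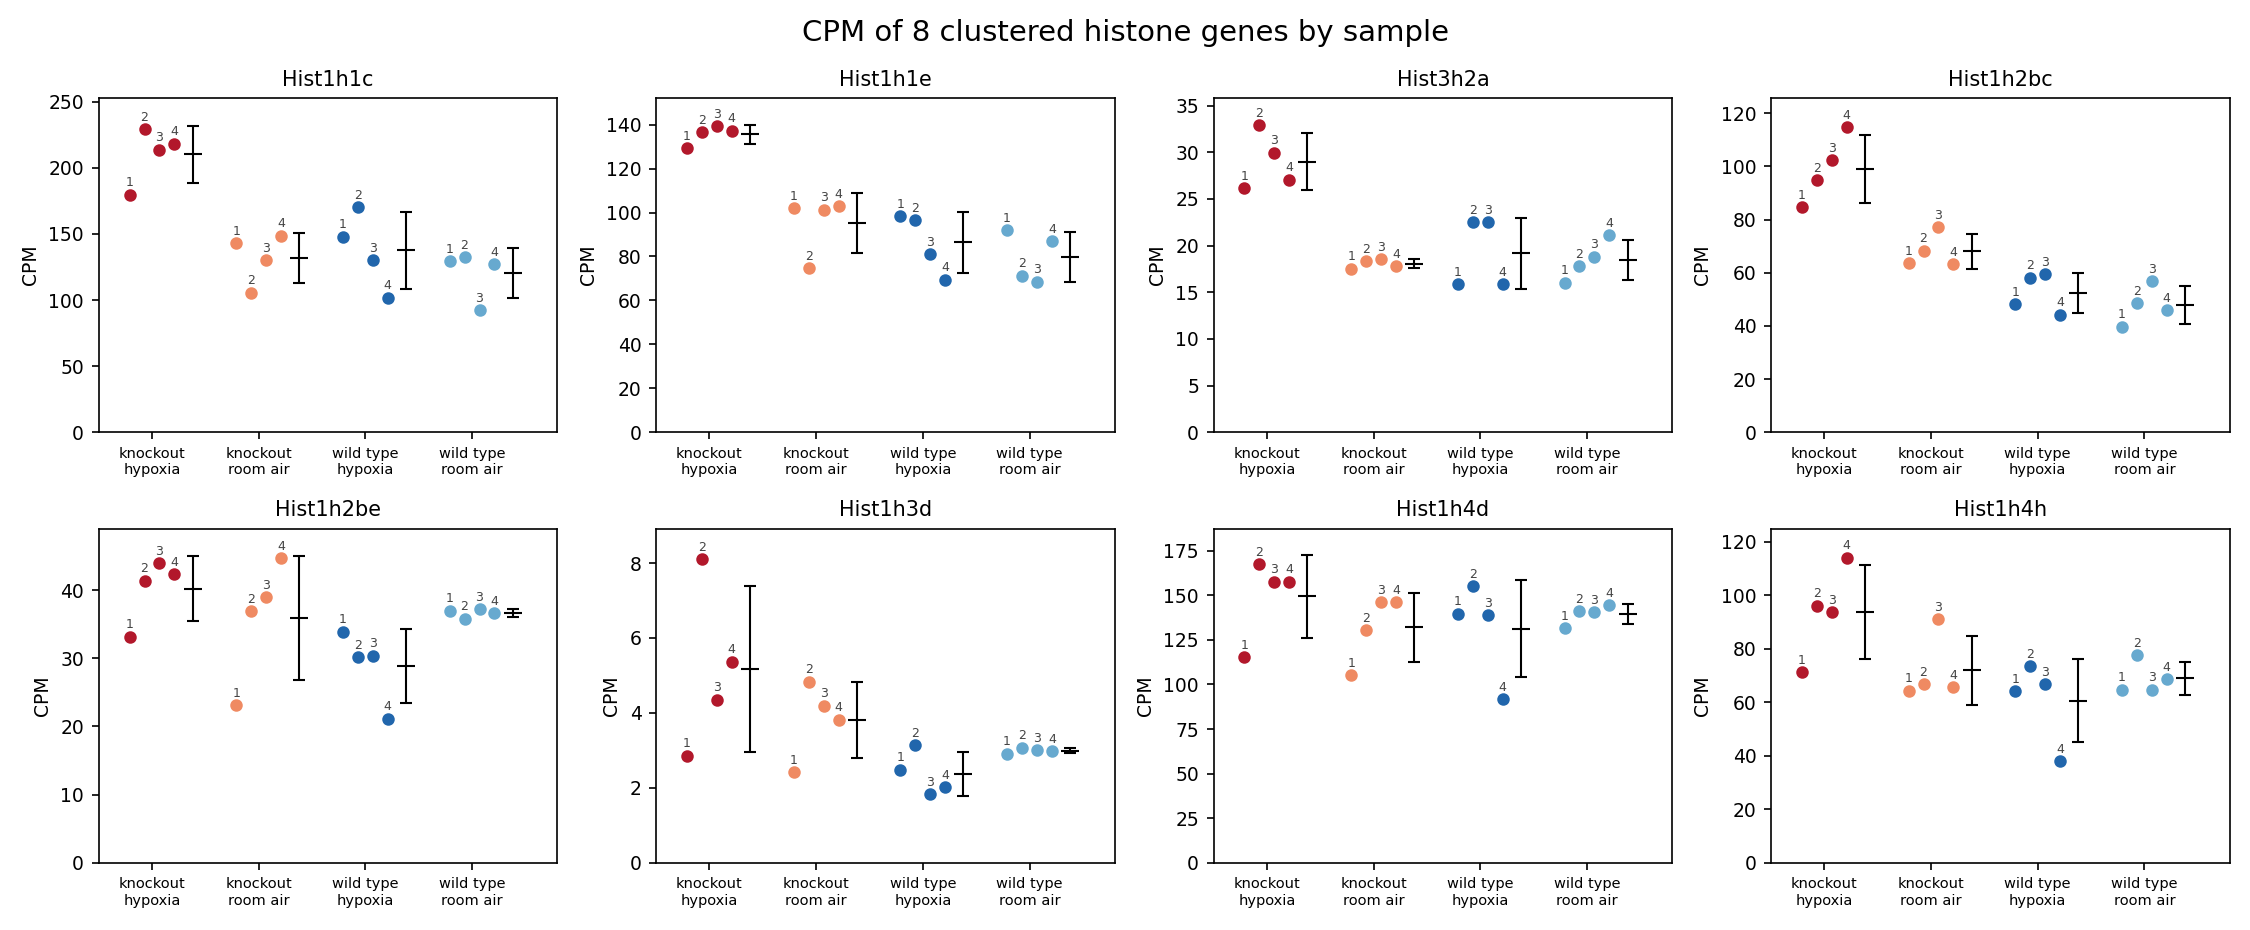
CPM of 8 clustered histone genes (vertical axes, from 0) in the 16 samples (points, numbered within their group), with the group mean ± SD (n = 4) in black. Hist1h1c, Hist1h1e, Hist3h2a and Hist1h2bc in knockout hypoxia lie above all other groups, whereas Hist1h4d overlaps in every group.

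Comparing hypoxia with room air within the knockout, 4 of 57 members were higher and 0 lower with an edgeR adjusted p under 0.05, or 7.02%, against 7.94% of all genes tested called higher. In this fit the share is near the background, but not in all settings. With the length trend removed, 12 members were called higher, against 1338 of 15761 genes. Without wild type hypoxia 4 and the 4 samples with pancreas or thymocyte markers, 15 were, against 537 of 15991 genes. The log2 fold change was positive for 56 of 57 members, against 50.7% of all genes, with a median of 0.36 for the members and 0.00 for all genes, and it was -0.05 for Hist1h1a. Without knockout hypoxia 2 the median was 0.16, with 46 positive, and without the 4 samples with pancreas or thymocyte markers it was 0.54, with 57 positive. The number called was 7 without knockout hypoxia 1 and 8 without wild type hypoxia 4, a sample outside this comparison that shares the estimate of spread. Over all genes, 1143 of 15896 and 1324 of 15892 were called higher in these 2 fits.

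The 4 called genes were Hist1h1c, Hist1h1e, Hist3h2a and Hist1h2bc, and for each of them, as for 12.7% of all genes, hypoxia lay above room air without overlap. Hist3h2a had 17.5, 18.3, 18.6 and 17.8 CPM in knockout room air, against the knockout hypoxia values above, and rose by 0.68 ± 0.12 on the log2 scale (adjusted p = 0.000794). Hist1h1c had 143, 106, 130.2 and 149 CPM in knockout room air and rose by 0.67 ± 0.15 (adjusted p = 0.00369). Hist1h1e had 102, 74.7, 101 and 103 CPM in knockout room air and rose by 0.51 ± 0.12 (adjusted p = 0.00642). Hist1h2bc had 63.5, 68.3, 77.2 and 63.2 CPM in knockout room air and rose by 0.54 ± 0.12 (adjusted p = 0.00366). The comparison shares the knockout hypoxia samples with the one above, so the recurrence of these 4 genes is no independent evidence.

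In wild type lungs, 0 of 57 members were called between hypoxia and room air by edgeR and 0 by DESeq2, against 4.98% of all genes by edgeR, and 1 member, Hist1h2be, had an unadjusted p under 0.05, against 16.3% of all genes. The members' median log2 fold change was 0.03, from -0.53 to 0.51, with a median SE of 0.25. The sign of that median turned with single samples: it was 0.18, with 42 members positive, without wild type hypoxia 4 and -0.12, with 17 positive, without wild type hypoxia 2. Hist1h2be had 33.9, 30.1, 30.4 and 21.1 CPM in wild type hypoxia and 37.0, 35.8, 37.2 and 36.6 in wild type room air. Hypoxia lay lower without overlap, which 3.94% of all genes did, at a log2 fold change of -0.35 ± 0.16 (edgeR adjusted p = 0.306). Hist4h4, the next by p, had a log2 fold change of -0.30 ± 0.15 (adjusted p = 0.344).

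Between knockout and wild type in room air, 0 of 57 members were called by edgeR, against 0.0761% of all genes. By unadjusted p under 0.05, which 21.6% of all genes reached, there were 5 members, Hist1h2bc, Hist2h2be, Hist1h1a, Hist3h2ba and Hist1h4i, and DESeq2 called 3 of them, Hist1h2bc, Hist2h2be and Hist1h1a. DESeq2 called 1119 of 15761 genes in this comparison, so its 3 members do not stand out from all genes. The median log2 fold change was 0.22 for the members, against -0.02 for all genes, and 44 of 57 were positive, against 47.5%. Without knockout room air 3 the median was 0.07, with 36 positive. Without the 4 samples with pancreas or thymocyte markers, which leaves 2 knockout room air samples, the median was -0.11, with 17 positive. The groups did not overlap, with knockout room air higher, for 2 members, against 4.31% of all genes. Hist1h2bc had 63.5, 68.3, 77.2 and 63.2 CPM in knockout room air and 39.7, 48.5, 56.9 and 45.9 CPM in wild type room air. The groups did not overlap, at a log2 fold change of 0.52 ± 0.12 with an edgeR adjusted p of 0.0631. That p ranged from 0.00155 to 0.412 over 30 alternative settings and fell under 0.05 when wild type room air 3 (0.00353), wild type hypoxia 2 (0.0459) or wild type hypoxia 4 (0.0495) was left out. Hist2h2be had 13.1, 15.9, 14.1 and 11.1 CPM in knockout room air and 11.1, 8.56, 8.92 and 9.11 CPM in wild type room air, at 0.52 ± 0.13 (edgeR adjusted p = 0.0643), and the lowest knockout and highest wild type values were nearly equal. Leaving out 1 sample changed the number called by edgeR to 2 for wild type hypoxia 2, to 2 for wild type room air 3 and to 1 for wild type hypoxia 4. Over all genes, 296 of 15875, 2197 of 15910 and 96 of 15892 were called in those 3 fits, in the same order.

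The difference between the hypoxia effects of the genotypes was tested as an interaction. By edgeR 0 of 57 members were called, against 0.501% of all genes, 10 had an unadjusted p under 0.05, against 14.1% of all genes, and DESeq2 called 1, Hist3h2a. DESeq2 called 484 of 15761 genes here. The effect of hypoxia on Hist3h2a was larger in knockout than in wild type lungs by 0.62 ± 0.18 on the log2 scale (edgeR adjusted p = 0.107), and that on Hist2h2ab by 1.01 ± 0.40 (adjusted p = 0.253). The median difference was 0.40 for the members and 0.00 for all genes, and it was 0.21 without knockout hypoxia 2 and 0.28 without wild type hypoxia 4. The median SE of a member's difference was 0.35. A p above the threshold does not show that the genotypes responded alike.

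**Figure D4:**
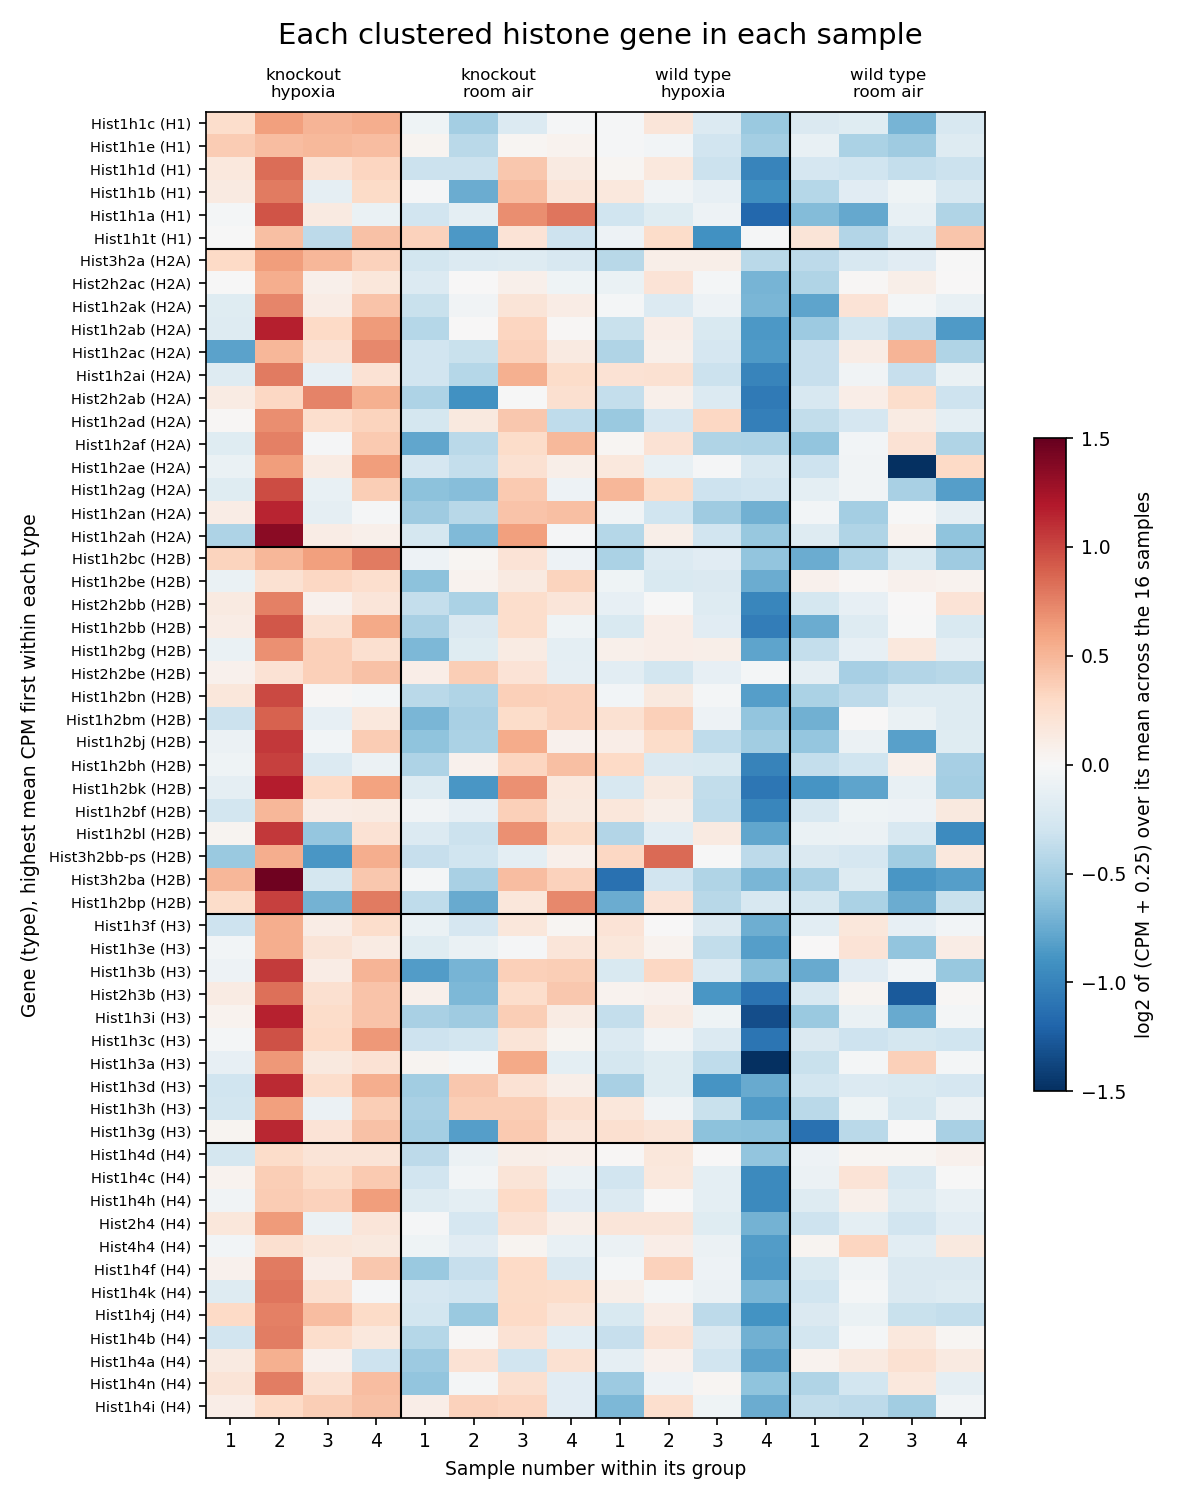
Each of the 57 genes (rows, by type) in each of the 16 samples (columns, by group), as log2 of CPM plus 0.25 over the gene's mean across samples, red above and blue below the mean. Knockout hypoxia 2 is the highest of all 16 samples for 45 genes and wild type hypoxia 4 the lowest for 36.

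Within knockout hypoxia the samples differed. Knockout hypoxia 2 was the highest of its group for 46 of 57 members, against 21.2% of all genes tested, with a median log2 ratio of 0.61 to the mean of the other 3. For Hist1h1e it was not the highest, with 136 CPM, against 129, 139 and 137 in knockout hypoxia 1, 3 and 4. Hist2h2bb, by contrast, had 47.5 CPM in that sample and 29.4 to 31.7 in the other 3.

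The genes reported to give poly(A) messages, a list of 8 of which 7 are members, were Hist1h1c, Hist1h2bc, Hist1h2be, Hist2h2be, Hist3h2a, Hist3h2ba and Hist4h4. Of these, 6 of 7 were called higher between knockout and wild type hypoxia, and 12 of the 50 other members, against 11.0% of all genes. The medians were 0.59 and 0.58. Between hypoxia and room air in knockout, 3 of 7 and 1 of 50 were called higher, against 7.94% of all genes, with medians of 0.54 and 0.35. Their sum was 360.2, 443, 432 and 446 CPM in knockout hypoxia, 283, 266, 304 and 308 in knockout room air, 279, 317, 276 and 208 in wild type hypoxia and 258, 273, 235 and 266 in wild type room air. Knockout hypoxia overlapped no other group in this sum. The list was chosen with earlier results of these data known, and its members are among the more abundant.

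Split by annotation, the calls between knockout and wild type hypoxia were 5 of 16 members whose transcript ends within 60 bases of the stem-loop, 10 of 22 that run further and 3 of 19 without a found stem-loop. Of all genes, 11.0% were called higher there. The medians of the 3 classes were 0.63, 0.53 and 0.60. Split by sequence sharing, calls were 2 of 22 members with more than 50% of their 50-base stretches at another locus, or 9.09%. Of the 35 others 16 were called, or 45.7%. The first share is under the 11.0% of all genes. The medians were 0.60 and 0.59. In the 10 head-to-head pairs, both partners had a positive log2 fold change between knockout and wild type hypoxia in 9 pairs, and in none were both called. Hist1h2ac and Hist1h2bc, with 250 bases between them, had mean levels of 4.14 and 66.8 CPM and log2 fold changes of 0.63 (not called) and 0.92.

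Of 16 genes that process histone messages, 3 were higher and 0 lower between knockout and wild type hypoxia, against 11.0% of all genes called higher and 12.1% called lower there. Of the same genes, 1 was higher between hypoxia and room air in knockout, against 7.94% of all genes. In wild type lungs 1 was higher, against 4.98% of all genes called in either direction, and 0 were called between genotypes in room air. Slbp had 21.5, 28.0, 22.0 and 27.4 CPM in knockout hypoxia and 18.3, 21.3, 22.7 and 18.8 CPM in wild type hypoxia, at a log2 fold change of 0.29 ± 0.11 (edgeR adjusted p = 0.0694). The 3 called were Eri1, an exonuclease that trims and degrades the stem-loop end, at 0.45 ± 0.10, and Lsm10 and Lsm11, subunits of the U7 particle that cuts it, at 0.33 ± 0.11 and 0.34 ± 0.12. Eri1 was also higher between hypoxia and room air in knockout, at 0.29 ± 0.09, and Ctif, which acts in translation of stem-loop messages, was higher in wild type hypoxia than in wild type room air, at 0.59 ± 0.14. Of 16 histone chaperone genes, 3 were lower and 0 higher between knockout and wild type hypoxia, a share near the 12.1% of all genes called lower. They were Chaf1b of the assembly factor CAF-1 at -0.70 ± 0.24, the importin Ipo4 at -0.35 ± 0.11 and Cabin1 of the HIRA complex at -0.32 ± 0.10. None of the chaperone genes was called in the other 3 comparisons.

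As a rule, though not for each of them, histone genes outside the clusters are expressed throughout the cell cycle as poly(A) messages. Of 11, 2 were higher between knockout and wild type hypoxia, against 11.0% of all genes. They were H3f3a (H3.3) at 0.98 ± 0.28 (edgeR adjusted p = 0.0228) and H2afz (H2A.Z) at 0.56 ± 0.20 (adjusted p = 0.0459). H3f3a had 34.0, 60.1, 36.8 and 58.9 CPM in knockout hypoxia and 35.9, 22.2, 19.2 and 19.5 CPM in wild type hypoxia, with 1 wild type sample inside the knockout range. H3f3b, the other H3.3 gene, was at 0.11 ± 0.11 there (not called) but was higher in knockout than in wild type room air, at 0.62 ± 0.11 (adjusted p = 0.046). Of all genes, 12 were called between genotypes in room air. That number was 0 without knockout room air 1, 2 or 3 or wild type room air 1, 2 or 4, each left out alone, so this call was lost. The number was also 0 without wild type hypoxia 3. It rose to 2197 of 15910 genes without wild type room air 3 and to 296 of 15875 without wild type hypoxia 2. The linker histone H1f0, known for quiescent cells, was higher in hypoxia than in room air in both genotypes, at 0.48 ± 0.13 in knockout and 0.68 ± 0.14 in wild type lungs, and was not called between genotypes.

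Of 25 genes of S phase, the phase in which clustered histone messages are made, 1 was higher and 1 lower between knockout and wild type hypoxia. Of all genes, 11.0% were called higher and 12.1% lower. The S phase gene called higher was Ccne2 (cyclin E2, at 1.32 ± 0.30). The one called lower was the helicase subunit Mcm2 (at -0.44 ± 0.11), and the median of the 25 was 0.00. Mcm2 had 13.9, 15.9, 13.0 and 14.5 CPM in knockout hypoxia and 21.1, 19.5, 17.0 and 20.4 CPM in wild type hypoxia, without overlap. Between hypoxia and room air in knockout 1 was higher, Tyms at 0.59 ± 0.15, against 7.94% of all genes, and 0 lower. Of 14 mitosis genes, 4 were higher between knockout and wild type hypoxia, against 11.0% of all genes. Between hypoxia and room air in knockout 7 were higher, against 7.94% of all genes. None was lower in either comparison, and the medians were 0.48 and 0.72. Between knockout and wild type hypoxia the cyclin Ccna2 rose by 0.89 ± 0.23, the topoisomerase Top2a by 0.66 ± 0.20 and the kinetochore protein Cenpf by 0.70 ± 0.22. Summed, the mitosis genes had 191, 335, 239 and 255 CPM in knockout hypoxia and 211, 181, 166 and 133 in wild type hypoxia. Knockout hypoxia 2 was highest and wild type hypoxia 4 lowest, as for the histone sum. These groups overlapped in the mitosis sum but not, by a small margin, in the histone sum. In wild type lungs, mitosis sums were 133 to 211 CPM in hypoxia and 124 to 149 in room air, which overlapped. The median log2 fold change there was 0.42 for the mitosis genes, with 0 of 14 called, and 0.03 for the histone genes. The S phase sum was 266 to 317 CPM in knockout hypoxia and 274 to 308 in wild type hypoxia.

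**Figure D5:**
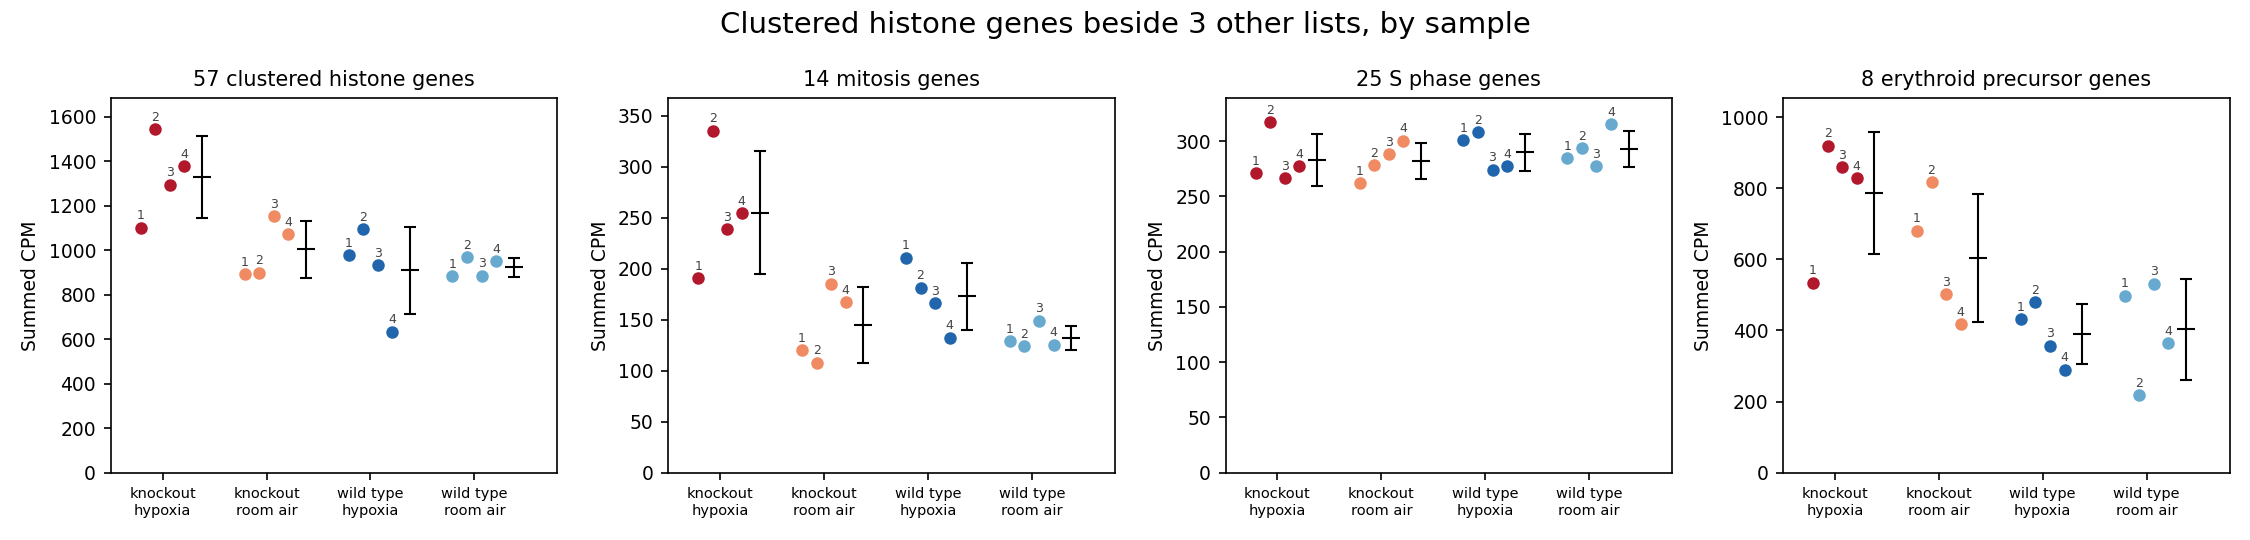
Summed CPM (vertical axes, from 0) of the 57 clustered histone genes beside 14 mitosis, 25 S phase and 8 erythroid precursor genes in the 16 samples (points, numbered within their group), with the group mean ± SD (n = 4) in black. The histone, mitosis and erythroid means are highest in knockout hypoxia, while the S phase means lie between 282 and 293 CPM in all 4 groups.

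Markers of some other cells differed between the same groups, not all in the same direction. The summed level of 8 erythroid precursor genes was 534 to 919.5 CPM in knockout hypoxia and 417 to 817 in knockout room air. It was 289.5 to 479.9 CPM in wild type hypoxia and 217 to 532 in wild type room air. Of the 8, 7 entered the fit. Between knockout and wild type hypoxia 4 were higher and 0 lower, against 11.0% of all genes called higher. Alas2, of haem synthesis, rose by 1.28 ± 0.39 on the log2 scale there, Slc4a1, the red cell anion exchanger, by 1.98 ± 0.58 and Hemgn by 3.06 ± 0.77. Klf1 was at 0 in 6 of 16 samples, and Hemgn reached 5.55 CPM in knockout hypoxia 2 against 0 to 0.650 in wild type hypoxia. All 8 B cell markers and 5 of 8 T cell markers were called lower between knockout and wild type hypoxia, against 12.1% of all genes. The B cell sums were 26.2 to 44.8 CPM in knockout hypoxia and 55.3 to 104 CPM in wild type hypoxia. The T cell sums were 11.4 to 24.8 and 35.4 to 37.4 CPM in the same groups. The sums of 8 neutrophil precursor genes were 23.0 to 75.5 CPM in knockout hypoxia and 59.7 to 89.4 CPM in wild type hypoxia. Only 4 of them entered the fit, with a median log2 fold change of 0.62, and 0 were called. Pancreas markers summed to 1301 CPM in knockout hypoxia 1, 100.2 in knockout hypoxia 2 and 16.4 in knockout hypoxia 3, against at most 3.47 CPM in the other 13 samples. Thymocyte markers summed to 98.5 and 84.6 CPM in knockout room air 3 and 4, which also had the higher histone sums of their group, against 12.2 to 25.7 CPM in the other 14 samples, with Rag2 at 0 in 13 samples and Ptcra in 11. Skeletal muscle markers summed to 1154 CPM in wild type room air 1, against 6.19 to 44.3 in the other 15 samples, and heart markers to 773 CPM in knockout room air 3, against 105 to 384 CPM. The part of these cells in the histone values was not tested.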

How the data were processed

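The deposited files hold whole-number read counts per gene, 1 file per library, and the authors made them with Trim Galore, TopHat2 and HTSeq on mm10, per the submitters' processing notes. No version, annotation or strand setting is stated. Per the labels' protocols, ribosomal RNA was removed from total RNA before random-primed, directional library preparation. Lines that name no gene were left out of the totals. Reads with several positions stand in such a line, and amounted to 2.34 to 12.4 for each count in genes. The A and B libraries of 4 room air samples were summed, what the letters stand for not being stated, which left 16 samples with 9531270 to 63331530 counts in genes.

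Counts were tested with edgeR 4.0.16 (quasi-likelihood test, robust, R 4.3.3) in 1 fit of all 4 groups after TMM scaling and filterByExpr (minimum count 10, total 15), with Benjamini-Hochberg adjustment over all genes. A gene was called at an adjusted p under 0.05. Counts of calls omit sex-linked genes, which leaves 15761 of 15766 genes. The test was checked on simulated counts. Alternatives were other scalings, no filter, DESeq2 1.42.0, other sets of samples, a replicate block and the removal of GC or length trends. The members and lists were chosen with earlier results of these data known.

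Genes named singly were the 3 highest members of each type, up to 6 called members of smallest p per comparison and direction, or the 2 of smallest p where none was called, Arg2, H3f3a, H3f3b, H1f0, Slbp, and up to 3 called genes of smallest p per list and comparison. Other members are named as listed, or because a count of 5 or fewer covers them or a value stood out, chosen after their values were seen. Gene models and transcripts were those of GENCODE vM21 on GRCm38. The same-numbered samples of different groups share only a number.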

Additional observations from a re-analysis of the deposited data

Results flagged for a closer look

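Over 112 groups of 4 samples, for 8 sums and 20 of the genes described, a Dixon test of the most extreme sample marked 5, where chance marks about 1 in 20. The summed level of the 7 genes with reported poly(A) messages was lowest in knockout hypoxia 1, at 360.2 CPM, against 432 to 446 CPM in the other 3 samples of that group. Hist1h1c was lowest in wild type room air 3, the sample with the fewest counts, at 92.2 CPM, against 127 to 133 CPM. Hist1h1e was lowest in knockout room air 2, at 74.7 CPM, against 101 to 103 CPM. Hist1h4h was highest in knockout room air 3, one of the samples with thymocyte markers, at 91.2 CPM, against 64.4 to 66.7 CPM. Hist2h2bb was highest in knockout hypoxia 2, at 47.5 CPM, against 29.4 to 31.7 CPM.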

How the results depend on the processing

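No single gene reversed its direction in a called comparison: over all 57 members, 5 comparisons and up to 30 alternatives, 8263 values kept their side of the threshold, 100 passed it and 111 lost it. Between knockout and wild type hypoxia, 18 members were called, and 11 with no scaling beyond the total, 10 once 4 samples with pancreas or thymocyte markers (knockout hypoxia 1 and 2, knockout room air 3 and 4) were left out and 4 once wild type hypoxia 4 was left out too. Over all genes, 1732 of 15761 were called higher in the main fit, and 1578 of 15761, 981 of 16037 and 756 of 15991 in these settings. Between hypoxia and room air in knockout, 4 were called, and 12 with the length trend removed, 8 with wild type hypoxia 4 and wild type room air 3 left out, and 15 with wild type hypoxia 4 and those 4 samples left out. Genes called higher over all genes were 1251 of 15761 in the main fit, and 1338 of 15761, 1613 of 15898 and 537 of 15991 in these settings. Between genotypes in room air, 0 were called, and 1 with upper quartile scaling, 3 by DESeq2, 2 with the A library only, 1 with the length trend removed and 3 with wild type hypoxia 4 and wild type room air 3 left out. Over all genes, the calls in these settings were 113 of 15761, 1119 of 15761, 207 of 15637, 75 of 15761 and 2523 of 15898, in the same order. For the difference between hypoxia effects, DESeq2 called 1, against 484 of 15761 genes. The cause was not tested. The settings that remove the length trend or leave out several samples at once, other than those 4 samples alone, were chosen after seeing the data. The replicate block was run although same-numbered samples share only a number (correlations of their deviations from -0.33 to 0.46). With the block, 1 member was called between genotypes in room air, 6 between hypoxia and room air in knockout and 19 between genotypes in hypoxia. Of 15761 genes, 238, 2714 and 3817 were called in either direction with the block. Without the 4 samples with pancreas or thymocyte markers, and also without them and wild type hypoxia 4, the log2 ratio of sums between genotypes in room air was -0.044 for all members, 0.041 for H2B and -0.089 for H3.

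Leaving out 1 sample at a time gave 8 to 23 called members between genotypes in hypoxia, 4 to 8 between hypoxia and room air in knockout, 0 to 2 between genotypes in room air, and 0 to 0 in the other 2 comparisons. The number called over all genes changed between these fits too. In the order genotypes in hypoxia, hypoxia in knockout, genotypes in room air, hypoxia in wild type and difference of effects, the log2 ratios of sums then ranged as follows. For all members they were 0.41 to 0.65, 0.33 to 0.49, 0.05 to 0.17, -0.12 to 0.12 and 0.29 to 0.53. For H1 they were 0.50 to 0.72, 0.45 to 0.61, 0.15 to 0.32, 0.05 to 0.27 and 0.28 to 0.50. For H2A they were 0.42 to 0.67, 0.32 to 0.57, 0.01 to 0.17, -0.11 to 0.12 and 0.33 to 0.58. For H2B they were 0.54 to 0.75, 0.31 to 0.50, 0.15 to 0.33, -0.09 to 0.11 and 0.30 to 0.52. For H3 they were 0.40 to 0.72, 0.16 to 0.48, 0.06 to 0.22, -0.21 to 0.07 and 0.26 to 0.58. For H4 they were 0.25 to 0.52, 0.21 to 0.37, -0.09 to 0.06, -0.25 to 0.03 and 0.26 to 0.53. A fit of only the groups compared gives no value for the difference of effects. Low members rest on few counts, and levels of near-identical copies are uncertain.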

Other observations

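Other RNAs that end without a poly(A) tail or in a processed end were measured too. Of 11 listed, 8 entered the fit. The telomerase RNA Terc was the 1 called, in 1 comparison: it had 1.22, 1.17, 1.02 and 1.54 CPM in knockout hypoxia and 2.38, 3.18, 3.03 and 2.94 CPM in knockout room air, and fell by 1.20 ± 0.24 (SE) on the log2 scale with an edgeR adjusted p of 0.00165. The groups did not overlap. Over all 15761 genes, 1434 were called lower between hypoxia and room air in knockout. None of the 8 was called between knockout and wild type hypoxia, against 11.0% of all genes called higher and 12.1% called lower. Their median log2 fold change there was 0.11.

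In wild type hypoxia 4, values moved with transcript length. Relative to the mean of wild type hypoxia 1 to 3, the median log2 ratio was -0.45 for transcripts of up to 500 bases, -0.32 for 500 to 1000, -0.15 for 1000 to 2000 and 0.11 for those above 4000 bases, against -0.76 for the 57 clustered histone genes. Among the RNAs without a poly(A) tail or with a processed end, the ratio was -1.06 for Rnu11, -0.85 for Rnu12 and -0.62 for Rpph1. It was -0.57 for Rmrp, -0.47 for Scarna2 and -0.18 for Terc, but 0.73 for Neat1 and 0.34 for Malat1.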
